A study of Mus musculus with 18 samples.

Results

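Smooth muscle cells and pericytes, the mural cells that wrap blood vessels, were followed in mouse heart RNA through 10 marker genes: Myh11, Tagln, Cnn1, Mylk, Smtn, Myocd, Rgs5, Cspg4, Pdgfrb and Mcam. The genes were chosen by name, and all 10 were found among the 34714 genes of the deposited table. The hearts came from C57 mice in 4 groups: 5 libraries of Kcp knockout after transverse aortic constriction (TAC), 4 of Kcp knockout after sham surgery, 5 of wild type after TAC and 4 of wild type after sham surgery. TAC is a surgical narrowing of the aorta that makes the left ventricle pump against high pressure, and the product of Kcp, kielin/chordin-like protein, is secreted and acts on BMP and TGF-beta signals. The labels call the tissue heart and name no chamber, and give no age and no interval between surgery and collection.

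Vascular smooth muscle cells contract by sliding smooth muscle myosin along actin, a movement switched on when myosin light chain kinase phosphorylates the myosin light chain. Their contractile genes are driven by serum response factor (SRF) together with its coactivator myocardin, and the cells can lower these genes and make matrix instead when vessels are injured. Pericytes sit on capillaries, which are dense in the heart, and depend on the growth factor PDGF-B from endothelial cells acting on its receptor PDGFRB. None of the 10 genes belongs to mural cells alone: myocardin is also made by cardiomyocytes, PDGFRB by fibroblasts and MCAM by endothelial cells.

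Values are FPKM, counts of fragments scaled by transcript length and by library total, as the authors made them. The unit was inferred from the values, and the depth of the libraries is unknown. The tests leave out replicate 2 of the knockout sham group because its library name joins the names of replicates 3 and 4 of the same group, so 17 libraries were fitted: 5 knockout TAC, 3 knockout sham, 5 wild-type TAC and 4 wild-type sham. The labels do not say that libraries came from separate mice, so p-values measure only the spread between these samples. Kcp was at 0.762 ± 0.197 FPKM in knockout TAC, 0.665 ± 0.00891 in knockout sham, 1.12 ± 0.204 in wild-type TAC and 1.03 ± 0.279 in wild-type sham (SD, n = 5, 3, 5 and 4). Its change between knockout and wild type was -0.27 ± 0.10 after TAC and -0.28 ± 0.12 in sham on the log2 scale used below, and neither passed (limma adjusted p = 0.0843 and 0.301), although every knockout library was below every wild-type library of the same surgery. RNA of the targeted gene was thus still present in knockout hearts, and how the knockout was made is not given in the labels. Libraries also fell into 2 sets that nearly follow genotype: 17 genes, Rps10 among them, were lower by more than 0.5 on the log2 scale in all knockout libraries and wild-type TAC replicate 5 (10 libraries) than in the other 8. Genotype and library set cannot be told apart in the sham hearts. Nppa, the atrial natriuretic peptide gene used here as a gauge of load, had the lowest value of its group in knockout TAC replicate 2 (2191 FPKM, against 3931 to 7472 in the other 4) and in wild-type TAC replicate 5 (645.5 FPKM, against 1510 to 2669). Each change below is a difference of log2(FPKM + 1), given with its standard error, and understates the change of genes at low levels. All adjusted p-values are from limma with Benjamini-Hochberg adjustment over 11937 genes, those with 3 or more libraries at 1 FPKM or above, with a threshold of 0.05.

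All 10 markers were above 0 in every library and passed the filter on low values. FPKM is scaled to transcript length, so levels can be compared between genes as far as the inferred unit holds. Rgs5, a brake on G-protein signalling that is abundant in pericytes, was the highest, with a mean of 120.2 FPKM over the 17 libraries (95.4 to 149.7). Smtn, which encodes the actin-binding protein smoothelin, followed with 67.2 FPKM (42.1 to 100). Its range touched that of Rgs5 but not that of the next gene. Mcam (18.3 FPKM), Pdgfrb (15.8), Tagln (12.1) and Myocd (10.5) came next, each with a range over libraries that overlapped the range of its neighbour. Mylk (4.52 FPKM), Myh11 (4.35) and Cspg4 (4.23) lay lower and overlapped one another. Cnn1 was the lowest at 1.14 FPKM (0.549 to 2.24) and met the filter mostly through TAC libraries, with 1 FPKM reached in 7 of 10 TAC and 2 of 7 sham libraries. Myh11, the smooth muscle myosin gene and the most specific of the contractile markers, had a mean above that of 37.5% of all tested genes. The mean of Smtn was above that of 93.1%.

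**Figure D1:**
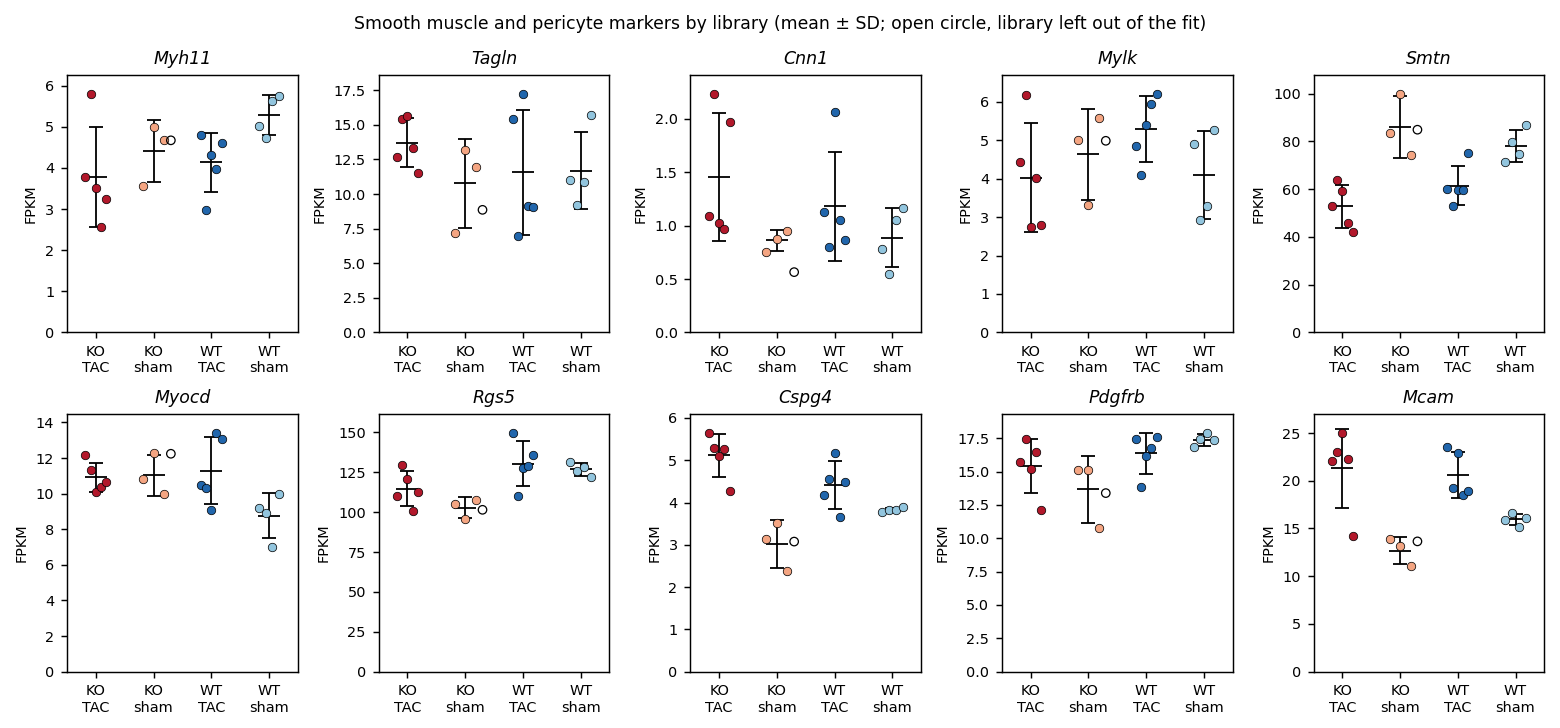
FPKM of each of the 10 markers by group (knockout TAC, knockout sham, wild-type TAC, wild-type sham), with a point for each library, bars at mean ± SD and an open circle for knockout sham replicate 2, which was left out of the tests. In knockout hearts Smtn after TAC lies wholly below sham, Cspg4 and Mcam lie wholly above it, and Myh11, Mylk and Rgs5 overlap.

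In knockout hearts Cspg4 and Mcam rose and Smtn fell, each with no overlap between TAC and sham libraries. In wild-type hearts Smtn fell by less and Myocd rose, both close to the threshold. Across all tested genes 38.8% passed in knockout and 21.9% in wild type, so 3 of 10 and 2 of 10 markers are near the background share. Groups without overlap were found for 35.8% of all genes in knockout (19.8% above and 16% below sham) and 21.7% in wild type (10.5% above and 11.1% below), beside 4 of 10 markers in knockout and 1 of 10 in wild type. The 4 in knockout include Cnn1, which met the filter on low values mostly through TAC libraries. The median change of the 10 markers was 0.16 in knockout and 0.10 in wild type, where the median of all tested genes was 0.01 and -0.01. The tissue was sequenced in bulk, so fewer cells of a type and less RNA per cell cannot be told apart.

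The contractile apparatus was described first. Myh11, the heavy chain of smooth muscle myosin, had 3.77, 5.81, 3.504, 2.56 and 3.25 FPKM in knockout TAC, against 3.56, 4.99 and 4.69 in knockout sham. In wild type it had 4.80, 2.99, 4.33, 3.98 and 4.60 FPKM after TAC, against 5.02, 4.74, 5.64 and 5.76 in sham. The TAC libraries were mostly lower in both genotypes but overlapped sham through knockout replicates 1 and 2 and wild-type replicate 1. The change was -0.20 ± 0.16 in knockout (limma adjusted p = 0.341) and -0.30 ± 0.15 in wild type (limma adjusted p = 0.161). Without knockout TAC replicate 2, the library with the highest Myh11 of its group, the knockout change was -0.34 and passed (limma adjusted p = 0.0461). Of 17 fits that each left out 1 library it was the only 1 to pass. Across 25 alternatives 2 passed, and the limma adjusted p ran between 0.0461 and 0.652.

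Mylk encodes myosin light chain kinase, and its locus also makes the short protein telokin. It had 4.42, 6.18, 2.75, 4.01 and 2.78 FPKM in knockout TAC, against 5.01, 3.31 and 5.59 in knockout sham. In wild type the values were 4.85, 4.09, 5.39, 5.95 and 6.21 FPKM after TAC, against 4.90, 2.92, 3.30 and 5.26 in sham. The libraries of each group spread more widely than the group means differed, and the groups overlapped in both genotypes. The estimates had opposite signs, -0.18 ± 0.21 in knockout and 0.32 ± 0.19 in wild type, and neither passed (limma adjusted p = 0.521 and 0.252).

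Tagln encodes transgelin (SM22-alpha) and Cnn1 calponin-1, a pair of related actin-binding proteins. Tagln had 12.7, 15.4, 15.6, 13.4 and 11.5 FPKM in knockout TAC, against 7.15, 13.2 and 11.99 in knockout sham. The wild-type values of Tagln were 15.4, 6.96, 17.3, 9.10 and 9.10 FPKM after TAC, against 11, 9.19, 10.9 and 15.7 in sham. The wild-type TAC hearts held both the lowest and the highest Tagln of all libraries tested, and the groups overlapped in both genotypes. The change was 0.35 ± 0.25 in knockout and -0.06 ± 0.23 in wild type (limma adjusted p = 0.290 and 0.882). The wild-type estimate turned positive without wild-type TAC replicate 2 (0.08) or wild-type sham replicate 4 (0.08).

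Cnn1 had 1.09, 2.24, 1.02, 0.965 and 1.97 FPKM in knockout TAC, against 0.757, 0.878 and 0.954 in knockout sham. The wild-type values of Cnn1 were 1.13, 0.802, 2.06, 1.05 and 0.870 FPKM after TAC, against 0.777, 0.549, 1.05 and 1.17 in sham. In knockout all TAC libraries stood above all sham libraries, by a narrow margin at knockout TAC replicate 4. Cnn1 met the filter on low values mostly through TAC libraries, and no knockout sham library reached 1 FPKM, so this separation is no support for a rise. The change was 0.37 ± 0.18 in knockout (limma adjusted p = 0.124) and 0.19 ± 0.17 in wild type (limma adjusted p = 0.443). With knockout sham replicate 2 kept in the fit the knockout change was 0.43 and passed (limma adjusted p = 0.0447, over a range of 0.0447 to 0.269 across 25 alternatives).

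Smtn was the marker with the clearest fall. It had 53.0, 63.9, 59.4, 45.8 and 42.1 FPKM in knockout TAC, against 83.6, 100 and 74.3 in knockout sham. The wild-type values of Smtn were 59.9, 52.9, 59.8, 59.6 and 75.3 FPKM after TAC, against 71.5, 79.6, 74.5 and 86.8 in sham. Every knockout TAC library lay below every knockout sham library. In wild type the same held except for TAC replicate 5, the library with the lowest Nppa of its group. Smtn fell in knockout by 0.70 ± 0.13 on the log2 scale (limma adjusted p = 0.000432) and passed in all 25 alternatives without a fold threshold. The wild-type fall of 0.35 ± 0.12 passed narrowly (limma adjusted p = 0.0483) and failed in 12 of 25 such alternatives, whose adjusted p ran between 0.00786 and 0.137. It was lost without any 1 of wild-type TAC replicates 1 to 4 (limma adjusted p = 0.0786, 0.110, 0.0896 and 0.0827) or wild-type sham replicates 1 to 4 (limma adjusted p = 0.0556, 0.0971, 0.0716 and 0.137), and without knockout TAC replicate 1 (0.0552) or knockout sham replicate 1 (0.0575), which change only the shared spread.

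Myocd encodes myocardin, the coactivator of SRF in cardiac and smooth muscle. It had 12.2, 11.3, 10.1, 10.4 and 10.6 FPKM in knockout TAC, against 10.8, 12.3 and 9.98 in knockout sham. The wild-type values of Myocd were 10.5, 10.3, 9.11, 13.4 and 13.1 FPKM after TAC, against 9.18, 8.89, 6.98 and 9.96 in sham. Wild-type TAC libraries were higher apart from replicate 3, while in knockout the groups covered the same range. Myocd rose in wild type by 0.33 ± 0.11 (limma adjusted p = 0.0340), and its change in knockout was -0.01 ± 0.12 (limma adjusted p = 0.947). The wild-type call failed in 9 of 25 alternatives, with an adjusted p between 0.0148 and 0.130. Among these were the fits without wild-type TAC replicate 4 (limma adjusted p = 0.0851), wild-type TAC replicate 5 (0.0767), wild-type sham replicate 2 (0.0584) or wild-type sham replicate 3 (0.130). The fit with a term for library set gave 0.28 (limma adjusted p = 0.0766).

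The pericyte markers were then followed. Cspg4 encodes NG2, a surface proteoglycan of pericytes. It had 5.65, 5.29, 5.11, 5.25 and 4.28 FPKM in knockout TAC, against 3.13, 3.51 and 2.39 in knockout sham. The wild-type values of Cspg4 were 4.18, 4.56, 5.18, 3.65 and 4.49 FPKM after TAC, against 3.79, 3.82, 3.82 and 3.88 in sham. All knockout TAC libraries lay above all knockout sham libraries, and wild-type TAC replicate 4 lay below wild-type sham. Cspg4 rose in knockout by 0.61 ± 0.10 (limma adjusted p = 9.45e-05), while its wild-type change of 0.16 ± 0.09 did not pass (limma adjusted p = 0.228). The knockout call held in all 25 alternatives without a fold threshold.

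Mcam encodes CD146, an adhesion molecule of pericytes, smooth muscle and endothelium. It had 22.04, 23.01, 25.01, 22.3 and 14.2 FPKM in knockout TAC, against 13.9, 13.1 and 11.1 in knockout sham. The wild-type values of Mcam were 23.5, 19.3, 23.0, 18.5 and 18.95 FPKM after TAC, against 15.9, 16.6, 15.2 and 16.1 in sham. TAC and sham did not overlap in either genotype, although knockout TAC replicate 5 lay only just above knockout sham. Mcam rose in knockout by 0.69 ± 0.13 (limma adjusted p = 0.000555). The wild-type change was 0.34 ± 0.12 and missed the threshold (limma adjusted p = 0.0514, between 0.00466 and 0.118 over 25 alternatives). It passed in 7 of these 25. They were the fits without knockout TAC replicate 5 (limma adjusted p = 0.00466), knockout TAC replicate 3 (0.0454) or knockout sham replicate 4 (0.0489). The others were the wild-type groups alone (limma adjusted p = 0.00661), a replicate block (0.00731), median-ratio scaling (0.0397) and all 18 libraries (0.0438). Pecam1, an endothelial marker, also rose in knockout (0.33 ± 0.08, limma adjusted p = 0.00415) and had a change of 0.13 ± 0.08 in wild type (limma adjusted p = 0.262). It is 1 of 10 endothelial markers, most of which did not move. Of the 10, 2 rose and 0 fell in knockout (limma), with 6 estimates above 0 and a median change of 0.09. In wild type 0 moved, with a median of -0.02. The part of endothelial RNA in the Mcam change was not tested.

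Rgs5 and Pdgfrb were steadier under load. Rgs5 had 110.3, 129.5, 120.9, 100.7 and 112.7 FPKM in knockout TAC, against 105.2, 95.4 and 107.9 in knockout sham. In wild type it had 149.7, 110.1, 127.6, 129.1 and 136.1 FPKM after TAC, against 131.7, 125.7, 128.2 and 122.2 in sham. TAC and sham overlapped in both genotypes, and the changes were 0.15 ± 0.09 in knockout and 0.03 ± 0.08 in wild type (limma adjusted p = 0.165 and 0.800). Without wild-type TAC replicate 1 the wild-type change was -0.02.

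Pdgfrb, the PDGF-B receptor, had 15.8, 17.5, 15.2, 16.4 and 12.1 FPKM in knockout TAC, against 15.1, 15.1 and 10.8 in knockout sham. In wild type it had 17.5, 13.8, 16.2, 16.8 and 17.6 FPKM after TAC, against 16.9, 17.4, 17.9 and 17.4 in sham. The groups overlapped in both genotypes. Its changes were 0.17 ± 0.11 in knockout and -0.09 ± 0.10 in wild type (limma adjusted p = 0.248 and 0.580).

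**Figure D2:**
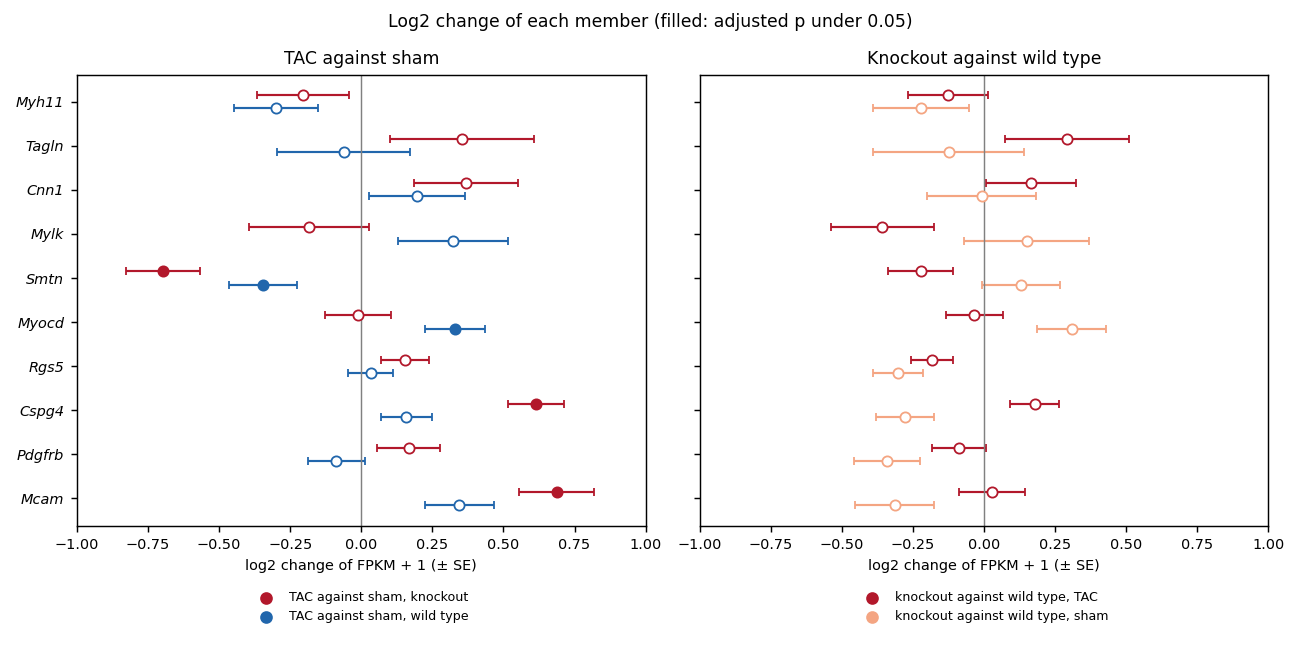
Log2 change of FPKM + 1 for each marker, with the standard error as a bar and filled points where the adjusted p is under 0.05; TAC against sham is on the left (knockout in red above wild type in blue) and knockout against wild type on the right (TAC in red above sham in orange). Filled points are Smtn, Cspg4 and Mcam in knockout and Smtn and Myocd in wild type on the left, and there are none on the right.

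Whether the response to TAC differed between genotypes was tested as an interaction, which passed for 0.93% of all genes (0.377% higher and 0.553% lower) and for 0 of the 10 markers (limma). At an unadjusted p under 0.05 there were 2, Cspg4 and Myocd, beside 18.8% of all genes. For Cspg4 the knockout response was larger by 0.46 ± 0.13 (limma adjusted p = 0.0868, between 0.0570 and 0.206 over 24 alternatives), and for Myocd it was smaller, at -0.34 ± 0.16 (limma adjusted p = 0.250). The interaction was -0.35 ± 0.18 for Smtn (limma adjusted p = 0.294) and 0.34 ± 0.18 for Mcam (limma adjusted p = 0.319). A call in knockout beside none in wild type is therefore not shown to be a difference between genotypes for any of these genes.

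Knockout and wild-type hearts were next compared under the same surgery. In sham hearts 4 pericyte markers lay wholly lower in knockout: Rgs5, Cspg4, Pdgfrb and Mcam. Rgs5 had 105.2, 95.4 and 107.9 FPKM in knockout sham, against 131.7, 125.7, 128.2 and 122.2 in wild-type sham, a change of -0.30 ± 0.09 (limma adjusted p = 0.114). The changes were -0.34 ± 0.12 for Pdgfrb, -0.31 ± 0.14 for Mcam and -0.28 ± 0.10 for Cspg4 (limma adjusted p = 0.168, 0.317 and 0.219). Myocd lay wholly higher in knockout sham (0.31 ± 0.12, limma adjusted p = 0.251), and the 5 contractile genes overlapped.

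None of the 10 markers passed in sham by limma, against 1.26% of all genes (0.645% higher and 0.62% lower), and 5 had an unadjusted p under 0.05, beside 14.2% of all genes. Of all genes 15.4% had no overlap between knockout and wild-type sham libraries (8.15% of all genes lower and 7.27% higher in knockout). Rgs5 passed when only the sham groups were fitted (limma adjusted p = 0.0371, between 0.0371 and 0.785 over 25 alternatives). With a term for library set, which rests on wild-type TAC replicate 5, the changes were -0.39 for Rgs5, -0.47 for Pdgfrb, -0.31 for Cspg4 and -0.18 for Mcam (limma adjusted p = 0.785, 0.817, 0.891 and 0.981), while that of Myocd shrank to 0.04 (0.990).

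After TAC all 10 markers overlapped between knockout and wild type, whereas 6.69% of all genes did not overlap (3.83% above and 2.87% below wild type). Of all genes 11.3% passed there (6.53% higher and 4.78% lower) and 0 of the 10 markers did (limma), with 1 at an unadjusted p under 0.05 beside 26.5% of all genes, Rgs5 at -0.18 ± 0.07 (limma adjusted p = 0.122). Rgs5 passed without wild-type TAC replicate 2 (-0.24, limma adjusted p = 0.0386) or knockout TAC replicate 2 (-0.23, limma adjusted p = 0.0457). Mylk had a change of -0.36 ± 0.18 and Smtn of -0.22 ± 0.11 (limma adjusted p = 0.226 and 0.222). Cspg4 and Mcam, whose lower values in knockout sham did not pass, stood at 0.18 ± 0.09 and 0.03 ± 0.11 after TAC (limma adjusted p = 0.191 and 0.911). The sign of the Mcam difference turned without knockout TAC replicate 2, knockout TAC replicate 3 or wild-type TAC replicate 4 (-0.00421, -0.03 and -0.00761).

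The upstream sequences of the 3 markers called in knockout are shown because these genes moved with load and one of them went the other way. RefSeq windows of GRCm38.p6 were matched for 6 of the 10 markers: Cnn1, Mylk, Smtn, Rgs5, Cspg4 and Mcam. Each window runs 5′ to 3′ on the gene's strand for 300 bases, 250 before and 50 after the start. Capitals mark the letters GGGCGG on either strand (the core of a GC box) and CATTCC on either strand (the core of an MCAT element). The windows are chr11:3539243-3539542 on the minus strand for Smtn, chr9:56864854-56865153 on the plus strand for Cspg4 and chr9:44134408-44134707 on the plus strand for Mcam.
Smtn: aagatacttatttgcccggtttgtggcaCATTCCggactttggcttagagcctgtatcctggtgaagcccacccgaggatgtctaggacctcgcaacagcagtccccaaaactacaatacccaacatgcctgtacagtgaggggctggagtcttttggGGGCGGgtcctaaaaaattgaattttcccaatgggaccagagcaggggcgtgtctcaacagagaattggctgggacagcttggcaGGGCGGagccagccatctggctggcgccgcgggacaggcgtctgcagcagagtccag
Cspg4: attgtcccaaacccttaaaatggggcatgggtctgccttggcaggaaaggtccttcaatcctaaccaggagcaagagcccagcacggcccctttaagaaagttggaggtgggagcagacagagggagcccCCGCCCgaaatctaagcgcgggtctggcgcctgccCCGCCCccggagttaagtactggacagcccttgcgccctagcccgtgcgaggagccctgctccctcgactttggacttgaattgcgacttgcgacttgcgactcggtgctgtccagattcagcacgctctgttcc
Mcam: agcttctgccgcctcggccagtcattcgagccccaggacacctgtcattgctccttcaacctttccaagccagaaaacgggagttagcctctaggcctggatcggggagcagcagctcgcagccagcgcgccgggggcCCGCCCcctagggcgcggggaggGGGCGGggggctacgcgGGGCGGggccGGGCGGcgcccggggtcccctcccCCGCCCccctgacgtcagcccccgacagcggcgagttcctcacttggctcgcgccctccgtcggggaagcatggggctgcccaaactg

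GGGCGG was found 2 times in the Smtn window, 2 times in that of Cspg4 and 5 times in that of Mcam. It was absent from the windows of Cnn1, Mylk and Rgs5, which were not called in knockout. Among 32851 mouse promoter windows of the same length 35.7% hold it. CATTCC was found once each for Smtn and Mylk (14.7% of windows), and TATAAA in none of the 6 (13.6%). The CArG box, the element that SRF binds, was searched only as CC, then 6 letters of A or T, then GG. In this form it was in none of the 6 windows and in 1.63% of all windows. Variant forms and sites outside the windows were not searched, and Myh11, Tagln, Myocd and Pdgfrb had no window. The Mylk window is at an internal start of that long gene. The GC content was 56.3% for Smtn, 60.0% for Cspg4 and 72.7% for Mcam, beside 59.3% for Cnn1, 53.3% for Mylk and 52.3% for Rgs5. A link between the sequence of these 6 windows and the calls was not tested.

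Wider lists of related genes placed the 10 markers in context. They were chosen with earlier results of these data known, and share no gene with the 10 markers. Of 16 further contractile smooth muscle genes 12 passed the filter, and in knockout 8 rose and 0 fell (21.1% of all genes rose and 17.7% fell there), with a median change of 0.36. In wild type 5 rose and 0 fell (10.7% and 11.2% of all genes), with a median of 0.25. The same shares of all genes stand beside the counts of TAC changes in each list below. Actg2, Lmod1, Kcnmb1 and Itga8 did not pass the filter, with highest values between 0.781 and 1.45 FPKM.

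Among the contractile genes that rose in both genotypes were Tpm2, a tropomyosin gene (1.02 ± 0.17 in knockout and 0.45 ± 0.15 in wild type, limma adjusted p = 0.000151 and 0.0462), and Cald1, the caldesmon gene (0.51 ± 0.08 and 0.35 ± 0.07, limma adjusted p = 4.5e-05 and 0.00189). Prkg1, the cGMP-dependent kinase of smooth muscle relaxation, and Aoc3, a vascular amine oxidase gene, rose as well. Prkg1 had 2.73 ± 0.363 FPKM in knockout TAC, against 1.75 ± 0.217 in knockout sham, and 2.93 ± 0.555 in wild-type TAC, against 1.66 ± 0.212 in wild-type sham (SD, n = 5, 3, 5 and 4). Acta2, the smooth muscle actin gene, did not follow. It had 27.6, 47.3, 59.2, 32.1 and 29.2 FPKM in knockout TAC, against 68.6, 48.7 and 51.1 in knockout sham, and between 44.7 and 90.8 FPKM in wild-type TAC, against 49.1 to 52.4 in wild-type sham. The changes of Acta2 were -0.56 ± 0.25 and 0.25 ± 0.23 and neither passed (limma adjusted p = 0.0862 and 0.456). Myl9 (-0.19 ± 0.18 in knockout and -0.16 ± 0.17 in wild type) and Ppp1r14a (-0.27 ± 0.21 and -0.46 ± 0.19) were below 0 in both genotypes. Neither gene passed (limma adjusted p = 0.425 and 0.534 for Myl9, 0.342 and 0.0983 for Ppp1r14a). The part of other cell types in the changes of the contractile list was not tested.

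Of 19 further pericyte genes, all tested, 2 rose and 2 fell in knockout and 1 rose and 3 fell in wild type, with medians of -0.01 and -0.07. Their summed level was 297.8 to 354.6 FPKM in knockout TAC, against 378.8 to 470.1 in knockout sham, and 306.5 to 368.8 in wild-type TAC, against 362.7 to 426.7 in wild-type sham. A large part of that sum was Art3, a gene of the ADP-ribosyltransferase family, which fell in knockout to 173.1 ± 26.6 FPKM in TAC, against 244.4 ± 56.1 in sham (SD, n = 5 and 3), with overlapping libraries (-0.48 ± 0.15, limma adjusted p = 0.0193). Without Art3 and Abcc9 the sum of the other 17 genes overlapped, at 109.6 to 156.2 FPKM in knockout TAC, against 111.8 to 128.9 in knockout sham, and 112.2 to 150.6 in wild-type TAC, against 138.3 to 147.4 in wild-type sham. Abcc9, a subunit of the vascular and cardiac potassium-ATP channel, fell in both: it had 33.7 ± 4.70 FPKM in knockout TAC, against 58.8 ± 2.72 in knockout sham, and 39.9 ± 5.96 in wild-type TAC, against 61.7 ± 0.379 in wild-type sham (SD, n = 5, 3, 5 and 4). Its changes were -0.80 ± 0.10 and -0.63 ± 0.10 (limma adjusted p = 1.25e-05 and 0.000212). Heyl, a Notch target of mural cells, rose in knockout (0.62 ± 0.11, limma adjusted p = 0.000267), and so did Cd248, which encodes endosialin (0.67 ± 0.16, limma adjusted p = 0.00281). Higd1b, a mitochondrial protein gene enriched in pericytes, rose in wild type (0.48 ± 0.12, limma adjusted p = 0.00888). Besides Abcc9, Gucy1a1 and P2ry14 fell in wild type (-0.43 ± 0.13 and -0.40 ± 0.14, limma adjusted p = 0.0195 and 0.043). In knockout these 2 genes had changes of -0.30 ± 0.14 and -0.25 ± 0.15 and did not pass (limma adjusted p = 0.0896 and 0.195).

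In sham hearts 2 of these 19 pericyte genes were lower in knockout, where 0.62% of all genes passed as lower, and 0 were higher. They were Heyl, with 4.81, 4.83 and 3.88 FPKM in knockout sham against 7.31, 7.39, 7.32 and 6.49 in wild-type sham, and Steap4, a metalloreductase gene, with 9.36, 9.53 and 7.71 FPKM against 12.1, 12.2, 13.5 and 13.9. No library of the groups overlapped for either gene, and 8.15% of all genes lay wholly lower in knockout sham in this way. Genotype and library set cannot be told apart in these hearts. With a term for library set the 151 genes called in sham became 12, and these 2 genes were not examined with that term. The changes were -0.56 ± 0.12 for Heyl and -0.50 ± 0.11 for Steap4 (limma adjusted p = 0.0197 and 0.0376). The median change of the 19 was -0.20, beside -0.17 for the 10 markers and -0.01 for all tested genes.

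Srf, the partner of myocardin, rose in both genotypes. It had 32.02 ± 1.71 FPKM in knockout TAC, against 21.96 ± 0.576 in knockout sham, and 32.1 ± 1.46 in wild-type TAC, against 25.6 ± 0.991 in wild-type sham (SD, n = 5, 3, 5 and 4). The changes were 0.52 ± 0.05 and 0.32 ± 0.05 (limma adjusted p = 1.28e-06 and 0.000287). Of 8 genes in the list of SRF, its cofactors and related factors 7 were tested, and 1 rose and 0 fell in knockout, 2 rose and 1 fell in wild type. Mrtfa, another coactivator of SRF, rose in wild type (0.27 ± 0.08, limma adjusted p = 0.0264), and Gata6 fell there (-0.27 ± 0.09, limma adjusted p = 0.0496).

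Of 5 genes for PDGF ligands and the alpha receptor, 1 rose and 1 fell in knockout and 0 moved in wild type (limma). Pdgfra, the fibroblast receptor, rose by 0.47 ± 0.12 in knockout and Pdgfa fell by 0.36 ± 0.10 on the log2 scale (limma adjusted p = 0.0053 and 0.00878). Pdgfb, the ligand of PDGFRB, had changes of -0.12 ± 0.17 in knockout and 0.13 ± 0.16 in wild type (limma adjusted p = 0.621 and 0.596). In wild type both called genes of the knockout had the same sign without passing, 0.25 ± 0.11 for Pdgfra and -0.24 ± 0.09 for Pdgfa (limma adjusted p = 0.117 and 0.0779).

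Receptors for vasoconstrictors moved in the same directions in both genotypes, with 1 higher and 3 lower of 7 tested (of 9) in each. Of all genes 21.1% rose and 17.7% fell in knockout, and 10.7% rose and 11.2% fell in wild type. The alpha-1 adrenergic receptor genes Adra1b (-0.87 ± 0.09 in knockout and -0.43 ± 0.08 in wild type, limma adjusted p = 9.34e-07 and 0.0011) and Adra1a (-0.81 ± 0.11 and -0.38 ± 0.10) fell. Agtr1a, the angiotensin II receptor gene, fell to 13.7 ± 1.69 FPKM in knockout TAC, against 21.4 ± 3.43 in knockout sham, and to 14.9 ± 1.05 in wild-type TAC, against 21.8 ± 1.90 in wild-type sham (SD, n = 5, 3, 5 and 4). Ednrb, the endothelin B receptor gene, rose (1.2 ± 0.24 in knockout and 0.74 ± 0.22 in wild type, limma adjusted p = 0.00101 and 0.0267). The part of cardiomyocytes and other cells in these receptor changes was not tested.

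Genes that smooth muscle cells make when they leave the contractile state, and that fibroblasts and other cells make too, rose in 8 of 9 tested genes in knockout and 4 of 9 in wild type (10 listed), and 0 fell. Col8a1, a short-chain collagen gene, rose by 2.62 ± 0.26 in knockout and 1.47 ± 0.24 in wild type (limma adjusted p = 1.91e-06 and 0.000522). Eln, the elastin gene, had 32.3, 15.6, 20.8, 33.3 and 22.3 FPKM in knockout TAC, against 7.70, 4.81 and 7.04 in knockout sham. In wild type Eln had 10.3, 10.6, 13.7, 9.05 and 8.63 FPKM after TAC, against 5.88, 5.32, 6.15 and 6.30 in sham. All knockout TAC hearts were above all wild-type TAC hearts for Eln, by 1.14 ± 0.18 on the log2 scale (limma adjusted p = 0.00124), and its interaction of 1.04 ± 0.28 did not pass (limma adjusted p = 0.0719). Mgp (matrix Gla protein) and Vim (vimentin) also rose in both genotypes.

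**Figure D3:**
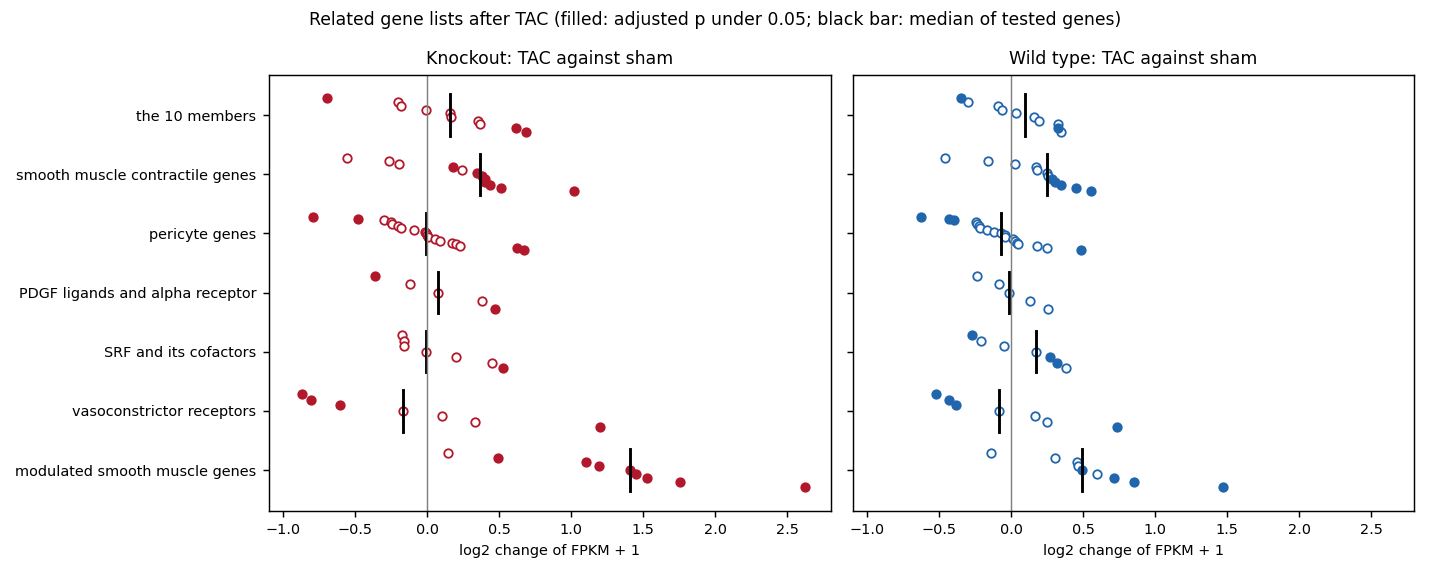
Log2 change of FPKM + 1 after TAC for each tested gene of 7 lists, in knockout (left) and wild type (right), with filled points where the adjusted p is under 0.05 and a black bar at the median of a list's tested genes. The 10 markers and the further pericyte genes spread to both sides of 0, while the modulated smooth muscle genes lie mostly to the right, with a median of 1.41 in knockout and 0.49 in wild type.

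Markers of other cell types were summed in each library to set beside these changes. Of 10 endothelial markers 2 rose and 0 fell in knockout and 0 moved in wild type (limma), and their summed level was 269.9 to 342.4 FPKM in knockout TAC, against 257.4 to 294.6 in knockout sham, and 271.8 to 321.4 in wild-type TAC, against 274.9 to 292.2 in wild-type sham. Of 7 activated fibroblast markers 6 rose in knockout and 5 in wild type, with sums of 111.2 to 371.3 FPKM in knockout TAC, against 14.2 to 15.7 in knockout sham, and 46.4 to 190.7 in wild-type TAC, against 15.7 to 23.8 in wild-type sham. Activated fibroblasts can also make Tagln, Cnn1 and Pdgfrb, and the part of these cells in the values of those genes was not tested. Of 8 resident fibroblast markers 5 rose and 0 fell in knockout and 2 rose and 1 fell in wild type.

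Of 8 cardiomyocyte markers 0 rose and 7 fell in knockout and 1 rose and 5 fell in wild type. Their sum was 36430 to 40630 FPKM in knockout TAC, against 45900 to 48980 in knockout sham, and 41980 to 44270 in wild-type TAC, against 44250 to 45710 in wild-type sham. The part of cardiomyocyte RNA in the falls of Smtn, or in the level of Myocd, was not tested. Macrophage markers rose in 2 of 6 tested genes in knockout and 0 in wild type (limma). Of 4 atrial markers 2 were tested: Nppa rose in both genotypes, and Myl4, an atrial myosin light chain gene at 0.186 to 2.39 FPKM over all libraries tested, fell in wild type (-0.68 ± 0.19, limma adjusted p = 0.0143) and had a change of 0.07 ± 0.20 in knockout (limma adjusted p = 0.806). The other atrial markers, Myl7 and Sln, were listed at 0 in 11 and 14 of 17 libraries and never exceeded 0.791 FPKM. Of 4 mesothelial markers 1 was tested, Wt1, a transcription factor gene of the epicardium, which rose by 0.83 ± 0.20 in knockout and 0.84 ± 0.19 in wild type (limma adjusted p = 0.00377 and 0.00429). The summed level of the mesothelial list was 1.84 to 6.76 FPKM in knockout TAC, against 1.70 to 1.93 in knockout sham, and 3.51 to 4.56 in wild-type TAC, against 1.42 to 3.01 in wild-type sham. Most of that sum was Wt1. In wild type the means of Msln, Upk3b and Krt19 were lower after TAC (0.104, 0.0760 and 0.0154 FPKM) than in sham (0.212, 0.310 and 0.0262). In knockout the means of Msln and Krt19 were higher after TAC and that of Upk3b was lower. The part of these cells in the marker values was not tested.

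**Figure D4:**
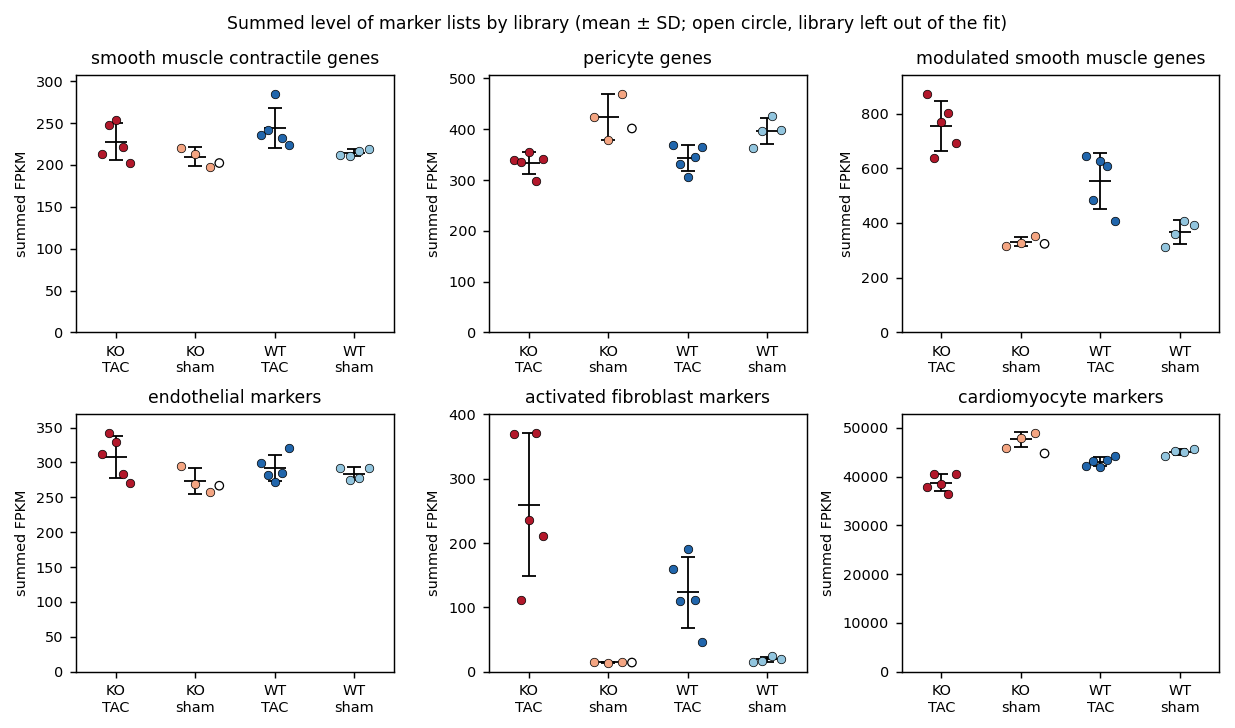
Summed FPKM of 6 marker lists by group, with a point for each library, bars at mean ± SD and an open circle for knockout sham replicate 2. Sums of activated fibroblast markers are far apart between TAC and sham in both genotypes (111.2 to 371.3 against 14.2 to 15.7 FPKM in knockout), whereas endothelial sums overlap between TAC and sham in both.

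The 10 markers did not vary as 1 block between hearts of a group. After group means were subtracted, Pearson's r over the 17 libraries among the 45 marker pairs ran between -0.27 (Rgs5 and Cspg4, Spearman rho -0.42) and 0.69 (Smtn and Pdgfrb, rho 0.64). Pdgfrb also went with Mcam (r = 0.68, rho = 0.42). Myh11 went with Rgs5 (r = 0.68, rho = 0.44) and Smtn (r = 0.65, rho = 0.62), and Cspg4 with Mcam (r = 0.64, rho = 0.50). Knockout TAC replicate 2 was the highest of its group for 6 of the 10 markers, and knockout TAC replicate 5 the lowest for 5: Tagln, Smtn, Cspg4, Pdgfrb and Mcam. In wild type, TAC replicate 2 was the lowest of its group for 7 markers and sham replicate 4 the highest for 7. These correlations describe libraries whose depth is unknown, and carry no test.

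Among 10745 other named genes with a mean of at least 1 FPKM, those most like Myh11 in the same measure were Vtn (r = 0.87, rho = 0.73), which is one of the further pericyte genes, Mettl7a1 (r = 0.86, rho = 0.79) and Plekha5 (r = 0.85, rho = 0.85). Most like Rgs5 were Ggcx (r = 0.90, rho = 0.86), Ctcf (r = 0.89, rho = 0.75) and Cav1, the caveolin-1 gene (r = 0.86, rho = 0.77). Most like Pdgfrb were Ttyh3 (r = 0.95, rho = 0.84), Dpysl4 (r = 0.92, rho = 0.83) and Unc93b1 (r = 0.91, rho = 0.90).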

How the data were processed

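RNA of 18 mouse heart libraries was measured; per the labels, an RNeasy kit was used for extraction and a SMARTER mRNA-Seq kit for the libraries. The authors deposited 1 table of FPKM values. Its header names no unit; no value is negative, they are not all whole, and they sum to 390453 to 432264 per library. The build was mm10, per the submitters' processing notes, and the sources used here name no aligner or counter. Every gene name (34714) matched a RefSeq symbol of GRCm38.p6.

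Values were taken as log2(FPKM + 1). Group means were fitted over 17 libraries with limma 3.58.1 in R 4.3.3 (trend and robust moderation), with Benjamini-Hochberg adjustment. The contrasts were TAC over sham within each genotype, knockout over wild type within each surgery, and the interaction. The members and gene lists were chosen with earlier results of these data known. All members are described. Of each related list up to 4 genes with the smallest adjusted p among those past the threshold in the TAC contrasts are named, plus Acta2, and genes named beside another result were picked after their values were seen. The fit was tested on simulated data. Alternatives were all 18 libraries, a replicate block, a pseudocount of 0.1, unfiltered genes, scaling by median ratios, fits to the compared groups alone, an added threshold of 1 on the log2 change, a term for library set, wild-type TAC replicate 5 and knockout TAC replicate 2 both left out, and each library left out in turn.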

Additional observations from a re-analysis of the deposited data

Results flagged for a closer look

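A sample far from the others of its group was looked for in the 30 combinations of a marker and a group with 4 or 5 libraries, where chance flags about 1 in 20. Mcam in knockout TAC replicate 5 was at 14.2 FPKM, against 22.04 to 25.01 in the other 4. Cnn1 in wild-type TAC replicate 3 was at 2.06 FPKM, against 0.802 to 1.13 in the other 4.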

How the results depend on the processing

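In knockout, the calls of Smtn, Cspg4 and Mcam after TAC held in all 25 alternatives without a fold threshold. A log2 change of at least 1 as well left 0 markers higher and 0 lower in either genotype, with 428 genes in knockout, 115 in wild type, 24 for knockout against wild type in sham, 62 after TAC and 14 for the interaction. After TAC in wild type, 2 markers were higher with all 18 libraries and with median-ratio scaling, and 0 with no filter, a library set term or without wild-type TAC replicate 5 and knockout TAC replicate 2; 0 were lower with no filter or the replicate block. Without those 2 libraries 2 markers were lower in knockout, Myh11 joining Smtn. Genes called for knockout against wild type in sham, 151, became 227 with all 18 libraries and 12 with the set term, where the changes were 0.18 for Tagln, 0.24 for Cnn1, -0.11 for Mylk and -0.24 for Smtn, against signs the other way; Cnn1 was also 0.00661 with a pseudocount of 0.1. With only the compared groups, 1 marker (Rgs5) was lower. After TAC the 1350 genes became 243 with the set term and 814 with only the compared groups. Interaction genes, 111, became 300 with all 18 libraries, 345 with the replicate block, 16 with no filter, 199 with scaling, 17 with the set term and 460 without the 2 libraries, where Myh11 had -0.00605; Myocd and Mcam in knockout against wild type after TAC were then 0.00676 and -0.0317. The cause of these shifts was not tested.

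Leaving out 1 library at a time gave 3720 to 4724 genes for TAC in knockout, 1981 to 2748 in wild type, 50 to 169 and 663 to 1833 for knockout against wild type in sham and after TAC, and 7 to 597 for the interaction. Markers after TAC in wild type were 0 to 2 higher and 0 to 1 lower, in knockout 1 to 2 lower, and for knockout against wild type after TAC 0 to 1 lower. Signs turned for Tagln (-0.215 to 0.0842) and Rgs5 (-0.0176 to 0.0922) after TAC in wild type, Myocd after TAC in knockout (-0.0757 to 0.0608), Tagln (-0.28 to 0.12) and Cnn1 (-0.0982 to 0.0632) in knockout against wild type in sham, Myocd (-0.100 to 0.0277) and Mcam (-0.0330 to 0.161) after TAC, and the interaction of Myh11 (-0.0401 to 0.194). None of these was called. Same-numbered libraries did not deviate together over all tested genes (22 pairs, r between -0.24 and 0.16). In groups this small that cannot exclude pairing by number. With the block the wild-type changes of Myocd (0.31, limma adjusted p = 0.0645) and Smtn (-0.34, limma adjusted p = 0.0922) no longer passed and that of Mcam did (0.42, limma adjusted p = 0.00731). Fits to the compared groups alone give no interaction. Without depth, counting error cannot be given for low genes such as Cnn1.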
